A study of Mus musculus with 14 samples.

Results

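The genes described here are 35 mouse genes known as targets of p53, the transcription factor encoded by Trp53. They were chosen by name, with no measured value in the rule, though with earlier results of these data known. Each is read from the brightest of its probes, on average, on 14 Agilent 1-colour arrays. All 35 of 35 had a probe, out of 20972 named genes with one. Of these, 33 reached a signal well above background on 2 or more arrays and were tested. Eda2r, a death receptor of the TNF receptor family, and Gdf15, a secreted stress cytokine, were well above background on 0 of 14 arrays and were not tested. The members were grouped by role, 10 under cell cycle arrest and checkpoints and 13 under apoptosis. A further 4 were put under DNA repair and nucleotide supply, and 8 under metabolism, redox balance or secreted proteins. The arrest and checkpoint group is mixed. It also holds the microtubule and spindle genes Gtse1, Ckap2 and Psrc1 and the survival factor Triap1, so its medians do not stand for arrest genes alone.

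p53 is stabilised by DNA damage and by oncogene activity, binds pairs of short half-sites in DNA, and switches on genes that stop the cell cycle, kill the cell or repair its DNA. In the thymus it restrains early T cells that have not completed rearrangement of their antigen receptor genes. Polycomb repressive complex 2, whose methyltransferase is Ezh2, silences genes, the Cdkn2a locus among them. One product of Cdkn2a restrains Mdm2, the ubiquitin ligase that degrades p53.

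The arrays measured RNA of CD4-CD8- cells from C57BL/6 mice, thymic by the titles and the design, while the labels' treatment text speaks of sorted bone marrow cells. Of these, 12 were non-leukemic, with each of 4 genotypes hybridised once at each of 3 stages. The stages follow the sort gates: CD44+CD25- cells are DN1, CD44+CD25+ cells DN2, and CD44-CD25+ cells DN3. The genotypes were Ezh2Δ/Δp53Δ/Δ (double-deleted), p53Δ/Δ, Ezh2Δ/Δ and WT. Donor bone marrow carried Cre-ERT2 in all of them, WT included, with floxed alleles of Ezh2, of p53, of both or of neither, and had been given to lethally irradiated CD45.1+ wild-type hosts. Deletion followed 4 weeks after transplantation, and cells were sorted 3 months after it. The remaining 2 arrays are of early T cell precursor leukemias (ETP-ALL) of Ezh2Δ/Δp53Δ/Δ mice 13 and 19, whose cells were taken through the DN2 gate at a time the labels do not give. The promoter that drives the Cre, the number of mice behind an array and the ages of the mice are not given in the sources used here.

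A level below is log2 of the processed signal minus the 75th percentile of its array, so that a level of 0 stands at that percentile. Genotypes were compared over their 3 stages with limma, with stage as an additive term. Nothing in the labels states whether separate mice gave the 3 stages of a genotype, so the p-values measure agreement over stages and may not hold the spread between mice. In sorted bulk RNA, fewer cells of a type and less RNA per cell cannot be told apart. Signal was weaker on slide 2, whose 6 arrays had a 75th percentile of 61.3 to 123, against 271 to 524 elsewhere. Slide 2 held all Ezh2Δ/Δ and p53Δ/Δ arrays, slide 1 the WT arrays with double-deleted DN2 and DN3, slide 3 double-deleted DN1, and slide 4 both leukemias. The p53Δ/Δ DN2 array correlated best with p53Δ/Δ DN1 (r of 0.974 across features, which are not independent replicates), and 10 of 10 NK cell markers were well above background on it as on every DN1 array, against 4 to 6 on the other DN2 arrays, though their log2 summed level there, 7.60, was below the 9.18 to 10.3 of the DN1 arrays.

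**Figure D1:**
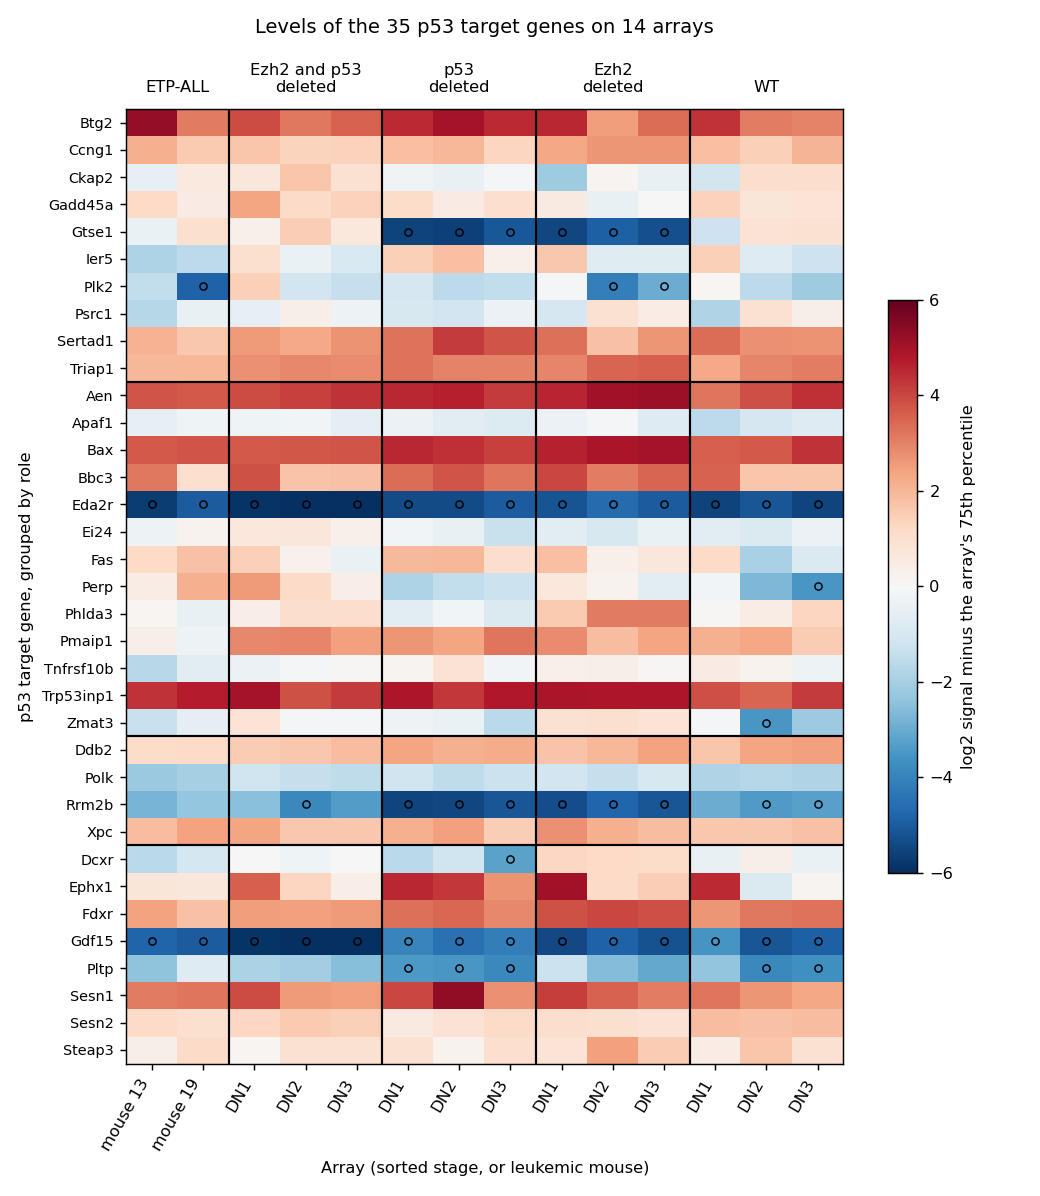
Levels of the 35 p53 target genes, in rows grouped by role, on the 14 arrays, in columns grouped by genotype, as log2 signal minus the 75th percentile of the array (colour). Open circles mark values not well above background; Gtse1 and Rrm2b carry one on all 6 p53Δ/Δ and Ezh2Δ/Δ arrays, and Eda2r and Gdf15 on all 14.

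The targeted gene was checked first. The Trp53 level in double-deleted cells, by stage, was -3.88, -2.40 and -0.92, well above background on all 3 arrays. It was -3.50, -5.36 and -4.88 in p53Δ/Δ cells, where none of the 3 arrays was well above background. In Ezh2Δ/Δ cells it stood at 0.68, 1.68 and 1.24, and in WT cells at 0.11, 1.03 and 1.28. Every array without p53 lay below every array with p53, and the level in p53Δ/Δ cells was at least 21.4-fold lower than in WT cells and at least 28.0-fold lower than in Ezh2Δ/Δ cells (adjusted p = 0.000513 and 0.00424). Double-deleted DN3 cells had the highest level among the arrays without p53. The level in double-deleted cells was at least 2.31-fold higher than in p53Δ/Δ cells, across slides (adjusted p = 0.0427). Arrays without p53 are those of the p53-deleted genotypes by label, so Trp53 signal was still detected on the double-deleted ones.

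The members spanned a wide range of levels. Averaged over the 14 arrays, the highest level belonged to Trp53inp1, which promotes cell death and autophagy, at 4.43, followed by Aen, an apoptosis-enhancing nuclease, at 4.24, and Bax, the pore-forming effector of mitochondrial apoptosis, at 4.12. The lowest of the tested members was Rrm2b, the p53-inducible subunit of ribonucleotide reductase, at -3.98. Levels of different probes also depend on the probe, so this order describes the arrays and not transcript abundance. Across the arrays Gtse1 spanned 7.08 log2 units, Plk2 6.26 and Perp 6.03, while Polk and Xpc spanned 1.26 each. Of the members that passed no genotype or leukemia test, Btg2 lay at 2.50 to 5.26 over the 14 arrays, Triap1 at 1.98 to 3.60, Xpc at 1.46 to 2.73 and Ddb2 at 1.08 to 2.46. Steap3 lay at 0.13 to 2.45, Tnfrsf10b at -1.65 to 0.87, Psrc1 at -1.82 to 0.94 and Apaf1 at -1.57 to -0.09.

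Promoters are shown for the 3 targets that passed the test for p53 loss, Phlda3, Dcxr and Gadd45a, and for Ccng1, a classical p53 target, so that the motif near their start sites can be read beside their values. RefSeq promoters of GRCm38.p6, windows around the start site of a gene, were at hand for 27 of the 35 members (38 promoters). The p53 half-site occurred in 11 of the 38 (28.9%), in 10 members, against 2745 of 32851 promoters of all genes (8.36%). A pair of half-sites, with at most 1 mismatch in each and at most 13 bases between them, occurred in 5.26% of the members' promoters and in 2.71% of all. The half-site reads the same on both strands, so 1 strand covers both, and members of a pair may overlap an exact half-site. Capitals mark half-sites and pairs. The lines below give Phlda3 at chr1:135765835-135766134, plus strand, Dcxr at chr11:120727235-120727534, minus strand, Gadd45a at chr6:67037358-67037657, minus strand, and Ccng1 at chr11:40755237-40755536, minus strand.
Phlda3: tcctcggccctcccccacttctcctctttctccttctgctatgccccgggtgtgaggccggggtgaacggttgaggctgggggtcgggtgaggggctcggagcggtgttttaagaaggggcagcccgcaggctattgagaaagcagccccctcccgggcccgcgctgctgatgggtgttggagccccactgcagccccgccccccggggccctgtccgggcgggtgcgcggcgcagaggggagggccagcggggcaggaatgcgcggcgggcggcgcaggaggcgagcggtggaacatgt
Dcxr: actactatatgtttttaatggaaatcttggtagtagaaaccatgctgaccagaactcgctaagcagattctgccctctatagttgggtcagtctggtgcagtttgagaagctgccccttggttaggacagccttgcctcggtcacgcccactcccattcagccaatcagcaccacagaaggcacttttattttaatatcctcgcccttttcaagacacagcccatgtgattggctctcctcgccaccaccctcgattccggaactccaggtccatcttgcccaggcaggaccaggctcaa
Gadd45a: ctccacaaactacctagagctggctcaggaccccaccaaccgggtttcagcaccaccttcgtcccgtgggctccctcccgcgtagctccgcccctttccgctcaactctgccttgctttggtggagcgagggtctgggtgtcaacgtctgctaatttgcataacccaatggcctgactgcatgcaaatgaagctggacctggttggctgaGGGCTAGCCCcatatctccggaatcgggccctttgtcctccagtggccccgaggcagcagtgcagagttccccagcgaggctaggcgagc
Ccng1: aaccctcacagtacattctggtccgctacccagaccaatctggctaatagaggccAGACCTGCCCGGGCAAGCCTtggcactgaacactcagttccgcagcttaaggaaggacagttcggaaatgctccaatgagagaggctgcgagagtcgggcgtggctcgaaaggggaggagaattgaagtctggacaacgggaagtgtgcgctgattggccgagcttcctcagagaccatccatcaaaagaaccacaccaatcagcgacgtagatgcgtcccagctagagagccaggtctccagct
The Ccng1 window held a pair starting 195 and 185 bases before the start site, and the Gadd45a window a half-site starting 40 bases before it. The windows of Phlda3 and Dcxr held no half-site. The other members with a half-site in the window were Aen, Bax, Ckap2, Ei24, Gtse1, Ier5, Polk and Sesn1, and Gtse1 also held pairs. These matches describe letters in a window and say nothing of binding.

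The first question was what the loss of p53 did to its targets. Over both Ezh2 backgrounds, the 6 arrays without p53 were set against the 6 with it, a comparison in which both sides lie on the same 2 slides apart from double-deleted DN1. Of the 33 tested targets, Phlda3 and Dcxr fell and Gadd45a rose, and 30 did not pass the test. Over all 27035 features 4.79% fell and 3.13% rose, against 6.06% and 3.03% of the targets, so the share of targets that fell was near that of all features. The median log2 difference was 0.12 for the targets and -0.07 for all features, with 15 targets below 0 and 18 above. Scaling each array on the probes detected on all arrays turned the split of called features from mostly lower, 1294 lower and 845 higher, to 570 lower and 674 higher. No target (0 of 33) had all 6 arrays without p53 below, or above, all 6 with it, which 0.703% of all features did in the lower direction and 0.588% in the higher. At an unadjusted p under 0.05, 9 targets differed, 4 lower and 5 higher, against 26.6% of all features.

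Phlda3 encodes a small membrane-binding protein that restrains the kinase Akt. Its lowest, median and highest levels were -0.87, 0.11 and 1.07 on the arrays without p53, against 0.05, 1.41 and 3.12 on those with it. The groups overlapped. WT cells, at 0.05, 0.43 and 1.27 in DN1, DN2 and DN3, lay near double-deleted cells, at 0.40, 1.05 and 1.07. p53Δ/Δ cells, at -0.66, -0.18 and -0.87, were the lowest of the non-leukemic genotypes and Ezh2Δ/Δ cells, at 1.56, 3.11 and 3.12, the highest. The log2 difference with p53 loss was -1.45 ± 0.25 (SE; adjusted p = 0.0152), a 2.74-fold lower level. Leaving out double-deleted DN2 ended the call, at an adjusted p of 0.0563.

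Dcxr, a carbonyl reductase of sugar metabolism, also fell. It stood at -3.22, -0.72 and 0.01 (lowest, median and highest) on the arrays without p53, against -0.46, 0.72 and 1.26 on those with it. By stage, Dcxr was at -1.61, -1.19 and -3.22 in p53Δ/Δ cells, the last not well above background, at 1.26, 1.2 and 1.11 in Ezh2Δ/Δ cells, at 0.01, -0.25 and -0.01 in double-deleted cells and at -0.46, 0.34 and -0.38 in WT cells. The log2 difference was -1.55 ± 0.29 (SE; adjusted p = 0.019), a 2.94-fold lower level. It was -0.80 with the normexp background correction, and the adjusted p rose to 0.0662 at most when an array was left out (WT DN2, Ezh2Δ/Δ DN3 and double-deleted DN2 each ended the call).

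Gadd45a, which slows the cell cycle after stress, went the other way. Its lowest, median and highest levels were 0.49, 1.11 and 2.38 without p53, against -0.43, 0.65 and 1.40 with it, so the ranges overlapped widely. By stage it was at 2.38, 1.13 and 1.39 in double-deleted cells, 1.09, 0.49 and 1.02 in p53Δ/Δ cells, 0.55, -0.43 and 0.01 in Ezh2Δ/Δ cells and 1.40, 0.75 and 0.82 in WT cells. The rise was 0.73 ± 0.16 (SE; adjusted p = 0.0307), but it missed the threshold with slide as a block and without any 1 of 11 of the 12 arrays, with adjusted p up to 0.0855. At each stage Ezh2Δ/Δ cells were the lowest, and p53Δ/Δ and WT cells differed by -0.12 ± 0.23 (SE; adjusted p = 0.702).

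The 3 targets with the next smallest p missed the threshold. Fdxr, the mitochondrial ferredoxin reductase, stood at 2.44, 2.72 and 3.46 without p53 and 2.66, 3.54 and 4.03 with it (lowest, median and highest), a log2 difference of -0.60 ± 0.17 (SE; adjusted p = 0.0611). It passed under 4 of the alternative settings, at -0.47 to -0.60. Ccng1, cyclin G1, stood at 1.31, 1.52 and 1.98 without p53 and 1.42, 2.18 and 2.66 with it, with a difference of -0.57 ± 0.19 (SE; adjusted p = 0.0983). Ei24, an apoptosis and autophagy protein of the endoplasmic reticulum, stood at -1.32, 0.08 and 0.70 without p53 and -0.95, -0.64 and -0.33 with it, with a difference of 0.59 ± 0.23 (SE; adjusted p = 0.14). For all 3 the groups overlapped. The double-deleted cells were the high ones for Ei24 and the low ones for Fdxr.

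**Figure D2:**
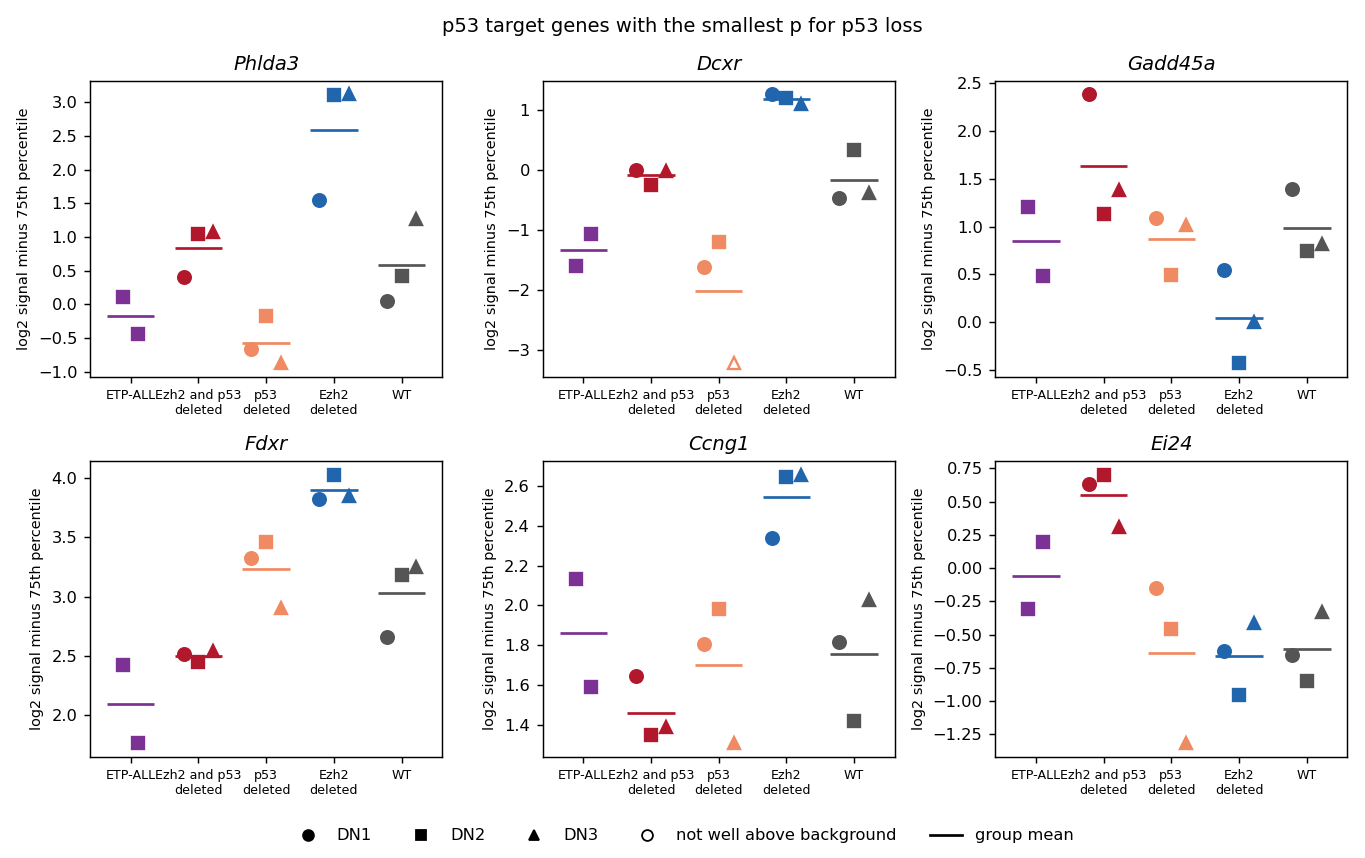
Levels of Phlda3, Dcxr, Gadd45a, Fdxr, Ccng1 and Ei24 (vertical axis, log2 signal minus the 75th percentile) by genotype (horizontal axis), with 1 symbol per array, shaped by stage, and a bar at the group mean. p53Δ/Δ cells are the lowest non-leukemic genotype for Phlda3 and Dcxr, and Ezh2Δ/Δ cells the highest.

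Among the other apoptosis targets none passed for p53 loss. Bax differed by -0.31 ± 0.18, with a 95% interval of -0.71 to 0.09. Bbc3 (PUMA) and Pmaip1 (NOXA), which both neutralise survival proteins of the BCL2 family, differed by 0.02 ± 0.33 and 0.57 ± 0.25. The death receptors Fas and Tnfrsf10b differed by 0.86 ± 0.35 and -0.09 ± 0.20, and Apaf1, the scaffold of the apoptosome, by 0.30 ± 0.20. Perp, a membrane protein of cell junctions and apoptosis, differed by 0.93 ± 0.43, and Zmat3, an RNA-binding protein, by 0.23 ± 0.42. Aen and Trp53inp1 differed by -0.08 ± 0.19 and 0.12 ± 0.19. The 95% interval of Bbc3 ran from -0.73 to 0.77.

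In the mixed arrest and checkpoint group, 7 of 10 targets lay above 0, with a median of 0.49. Plk2, a stress-induced polo-like kinase, differed by 0.94 ± 0.40, and Btg2, an antiproliferative cofactor of mRNA decay, by 0.61 ± 0.29. The immediate early factor Ier5, the microtubule-associated Ckap2 and the transcriptional cofactor Sertad1 differed by 0.60 ± 0.33, 0.65 ± 0.34 and 0.38 ± 0.28. Psrc1, a spindle protein, differed by -0.45 ± 0.35, and Triap1, a mitochondrial survival factor, by -0.11 ± 0.18. Gtse1, a microtubule protein that itself restrains p53, differed by 0.20 ± 0.30, with values not well above background on 3 of the 6 arrays of each side.

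The repair targets Xpc and Ddb2, which recognise damage for nucleotide excision repair, differed by -0.01 ± 0.21 and -0.15 ± 0.17. Polk, a translesion polymerase, differed by 0.12 ± 0.15, and its second probe by -0.72, so its 2 probes did not give the same sign. Rrm2b differed by -0.16 ± 0.24. In the metabolic group, Steap3, a ferrireductase, differed by -0.60 ± 0.29. The stress-induced Sestrins Sesn1 and Sesn2, inhibitors of mTORC1, differed by 0.35 ± 0.34 and -0.26 ± 0.15. Pltp, a phospholipid transfer protein of lipoproteins, differed by -0.09 ± 0.24. Ephx1, microsomal epoxide hydrolase, differed by 0.88 ± 0.53 with 1 probe and by -0.15 with the other.

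The same question was then asked inside each slide. On slide 2, p53Δ/Δ cells were set against Ezh2Δ/Δ cells, genotypes that differ in both genes. Phlda3 was -3.16 ± 0.36 and Dcxr -3.20 ± 0.41 on the log2 scale (adjusted p = 0.00298 and 0.00523), 8.97-fold and 9.17-fold lower levels in p53Δ/Δ cells, with every p53Δ/Δ array below every Ezh2Δ/Δ array for both. These 2 of 33 targets fell and 0 rose, against 2.27% and 1.71% of all features, and 11 targets, against 19.4% of all features, were under an unadjusted p of 0.05. With the 6 slide 2 arrays alone, which leaves fewer residual degrees of freedom, the adjusted p was 0.0681 for Phlda3 and 0.0740 for Dcxr. The other pair is double-deleted against WT cells, which also differ in both genes and shared slide 1 apart from double-deleted DN1. There Phlda3 differed by 0.26 ± 0.36 (SE; adjusted p = 0.679) and Dcxr by 0.09 ± 0.41 (SE; adjusted p = 0.911). Perp alone passed, at 3.47 ± 0.61 (SE; adjusted p = 0.0144), so 1 of 33 targets rose and 0 fell, against 3.72% and 3.48% of all features, with 6 targets, against 27.1% of all features, under an unadjusted p of 0.05. On the arrays of slide 1 alone the Perp difference was 3.85 (adjusted p = 0.031), while slide as a block ended the call, as did leaving out WT DN2, double-deleted DN1 or double-deleted DN2, with adjusted p up to 0.0716.

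The second question was what the loss of Ezh2 did to the p53 targets, with or without p53. Of the 33 tested, 5 rose and 0 fell: Perp, Zmat3, Phlda3, Dcxr and Pltp, 15.2% of the targets, against 2.73% of all features that rose and 1.21% that fell. The median difference was 0.18 for the targets and -0.03 for all features. Of the apoptosis targets 11 of 12 lay above 0 and 3 passed. With slide as a block, or with scaling on the probes detected on all arrays, 3 of the 33 rose. Phlda3 rose by 1.71 ± 0.25 (SE; adjusted p = 0.00722) and Dcxr by 1.64 ± 0.29 (SE; adjusted p = 0.0169). The Dcxr call was lost under 4 of 20 alternatives, slide as a block among them, with adjusted p up to 0.0547. The effects of Ezh2 loss and p53 loss are estimated from the same 12 arrays, so the opposite signs of these 2 genes are given side by side and not as separate evidence.

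Perp rose with Ezh2 loss by 2.54 ± 0.43 (SE; adjusted p = 0.0141), a 5.80-fold higher level. It stood at 2.56, 1.15 and 0.40 in double-deleted cells of the 3 stages and at 0.62, 0.23 and -0.69 in Ezh2Δ/Δ cells. Cells with Ezh2 were lower, at -1.87, -1.46 and -1.31 in p53Δ/Δ and -0.14, -2.68 and -3.48 in WT cells, the last not well above background. Of the arrays with Ezh2, WT DN1 alone reached into the range of those without it. Perp missed the threshold without Ezh2Δ/Δ DN2, at an adjusted p of 0.0506.

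Zmat3 rose by 1.91 ± 0.42 (SE; adjusted p = 0.0421). It was at 0.84, -0.07 and -0.11 in double-deleted and 0.93, 0.94 and 0.82 in Ezh2Δ/Δ cells, against -0.30, -0.41 and -1.64 in p53Δ/Δ and -0.08, -3.50 and -2.18 in WT cells. The WT DN2 value was not well above background and was the lowest of all, and the call was lost under 12 of 20 alternatives, with adjusted p up to 0.121. Pltp rose by 1.22 ± 0.24 (SE; adjusted p = 0.0248), at -1.88, -2.06 and -2.57 in double-deleted and -1.27, -2.58 and -3.07 in Ezh2Δ/Δ cells, against -3.46, -3.49 and -3.88 in p53Δ/Δ and -2.35, -3.86 and -3.69 in WT cells. It was well above background on all 6 arrays without Ezh2 and on 1 of the 6 with it, WT DN1. Its call was lost under 7 of 20 alternatives.

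**Figure D3:**
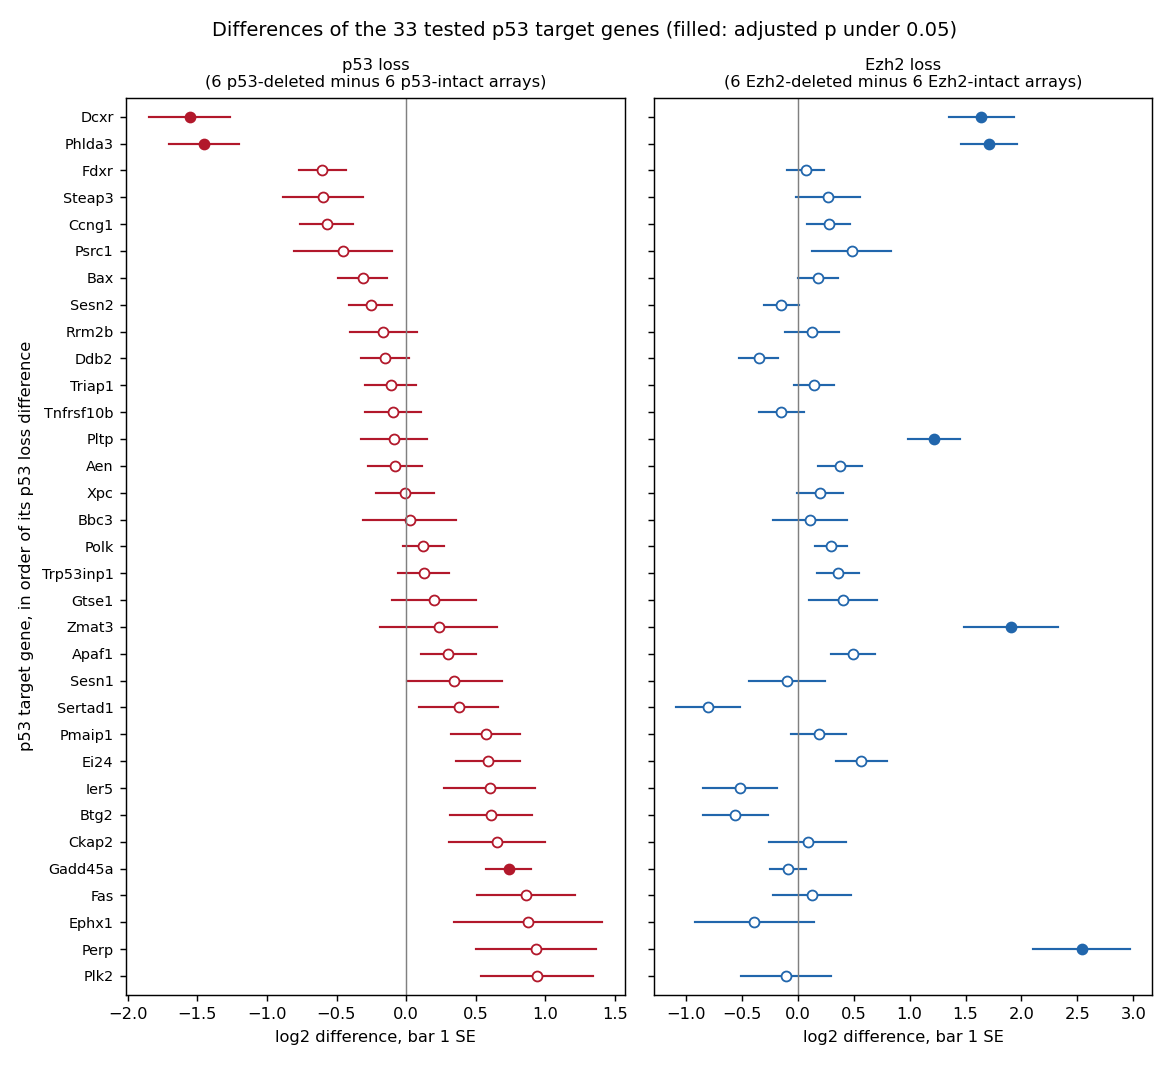
Log2 differences of the 33 tested p53 target genes (rows, ordered by p53 loss) for p53 loss (left) and Ezh2 loss (right), with bars of 1 SE and filled points at an adjusted p under 0.05. Dcxr at -1.55 and Phlda3 at -1.45 lie lowest for p53 loss, and Perp at 2.54 highest for Ezh2 loss.

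Each single genotype was then set against WT, and the double deletion against each single one. These 4 comparisons pair slide 2 with slides 1 and 3, so genotype and slide cannot be told apart in them, and called features are many. p53Δ/Δ against WT gave 5 lower and 4 higher targets (15.2% and 12.1%), against 19.9% and 16.7% of all features. Ezh2Δ/Δ against WT gave 4 lower and 12 higher (12.1% and 36.4%), against 17.8% and 17.6%. The 12 became 2 without Ezh2Δ/Δ DN2 or without WT DN2, 3 without Ezh2Δ/Δ DN3, 5 without WT DN1, 6 without Ezh2Δ/Δ DN1 or with scaling on the probes detected on all arrays, and 7 with no filter on dim probes. Double-deleted against Ezh2Δ/Δ gave 5 lower and 6 higher, against 17% and 13.8%, and double-deleted against p53Δ/Δ gave 2 lower and 8 higher, against 15.8% and 15.9%. The 12 targets higher in Ezh2Δ/Δ than in WT cells included 7 of the 12 tested apoptosis targets. In the same comparison 5 of 12 T cell precursor markers were higher (Bcl11b, Cd3d, Cd3e, Cd3g and Ptcra), with a log2 summed level of 9.76 to 10.8 in Ezh2Δ/Δ and 8.65 to 9.68 in WT cells. Of 6 double-positive markers Cd4, Cd8a and Cd8b1 were lower, with summed levels of 6.73 to 10.45 in Ezh2Δ/Δ and 6.15 to 9.39 in WT cells. Csf1r and Itgam, 2 of 11 myeloid and dendritic markers, were lower, and of the 6 tested B cell markers Cd79b was higher and Cd22 lower. Gzma was the 1 of 10 NK markers to pass, and was higher. The part of these cells in the differences of the targets was not tested.

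Gtse1 had the largest difference in all 4 of these comparisons. It stood at 0.31, 1.45 and 0.63 in double-deleted, -5.55, -5.62 and -5.09 in p53Δ/Δ, -5.45, -4.89 and -5.29 in Ezh2Δ/Δ and -1.22, 0.86 and 0.94 in WT cells. It was not well above background on any of the 6 slide 2 arrays and was well above it on all 8 others. Its level was at least 13.9-fold lower in p53Δ/Δ than in WT cells and at least 11.0-fold lower in Ezh2Δ/Δ than in WT cells (adjusted p = 2.53e-05 and 3.46e-05). In double-deleted cells it was at least 21.2-fold higher than in p53Δ/Δ and at least 16.8-fold higher than in Ezh2Δ/Δ cells (adjusted p = 1.68e-05 and 2.41e-05). These bounds hold for the processed signal: with the normexp background correction the log2 differences were smaller than the bounds, at -1.68, -1.59, 2.15 and 2.06 in the same order. Of all tested features, 431 had this pattern of detection and 12 had its opposite.

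Rrm2b was not well above background on the same 6 arrays, at -5.49, -5.48 and -5.11 in p53Δ/Δ and -5.31, -4.75 and -5.14 in Ezh2Δ/Δ cells, with -2.49, -3.88 and -3.34 in double-deleted and -2.97, -3.39 and -3.25 in WT cells. Only 5 of the 14 arrays gave it a level well above background, and the bounds on its difference were 1.02-fold to 1.32-fold. Its sign turned in all 4 comparisons with the normexp background correction, so no direction is given for it. Gtse1 is a gene of the late cell cycle, so the proliferation list was read beside it. Of 19 tested proliferation genes, Cdk1, Aurkb and Kif23 were lower in p53Δ/Δ than in WT cells and 16 did not pass, with a list median of 0.38. For p53 loss 0 of the 19 passed, with a median of 0.46. Cdk1, the mitotic cyclin-dependent kinase, was well above background on 0 of the 6 slide 2 arrays and on 8 of 8 others by its brightest probe. A second of its 3 probes had the same pattern, on 0 of the 6 and 8 of 8 others, at -5.40 to -4.46 against -2.99 to -0.01. The remaining probe was well above background on 5 of the 6, at -3.46 to -2.04, against -3.46 to -2.67 on the 8 others. Cyclin B1 (Ccnb1), chosen after its values were seen, spanned 2.70 to 4.87 on slide 2 and 1.12 to 4.54 on the other slides.

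**Figure D4:**
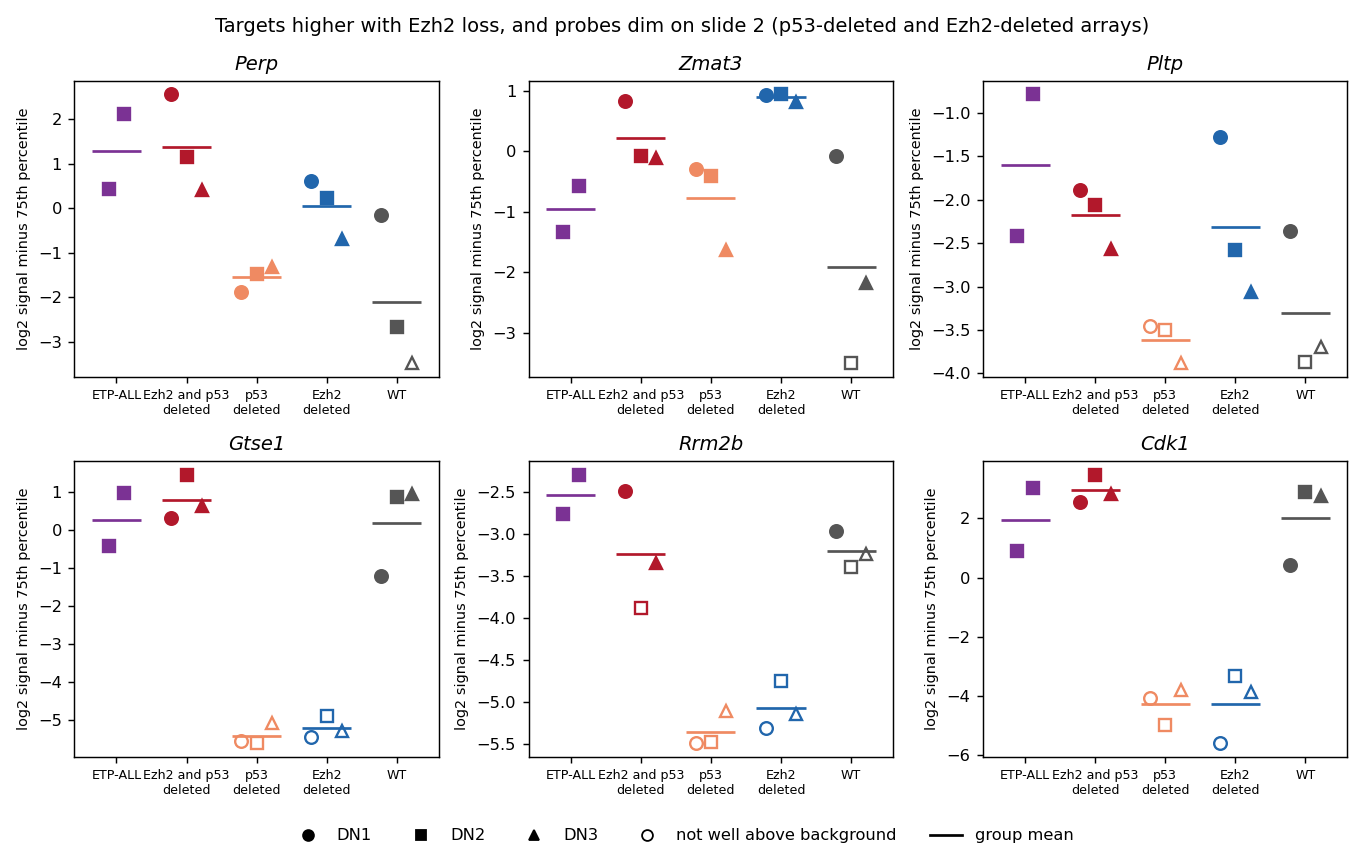
Levels of Perp, Zmat3, Pltp, Gtse1, Rrm2b and Cdk1 (vertical axis, log2 signal minus the 75th percentile) by genotype, with 1 symbol per array and a bar at the group mean; open symbols were not well above background. Gtse1 lies between -5.62 and -4.89 on the 6 p53Δ/Δ and Ezh2Δ/Δ arrays, all on slide 2, and between -1.22 and 1.45 on the others.

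The apoptosis targets that passed in these comparisons are given by array. Bax stood at 3.68, 3.73 and 3.76 in double-deleted, 4.51, 4.38 and 4.11 in p53Δ/Δ, 4.6, 4.88 and 5.0 in Ezh2Δ/Δ and 3.57, 3.66 and 4.33 in WT cells. It was higher in Ezh2Δ/Δ than in WT cells by 0.97 ± 0.25 and lower in double-deleted than in Ezh2Δ/Δ cells, at -1.11 ± 0.25 (adjusted p = 0.0162 and 0.0112). Aen was at 3.91, 4.12 and 4.35 in double-deleted, 4.51, 4.67 and 4.18 in p53Δ/Δ, 4.58, 5.03 and 5.13 in Ezh2Δ/Δ and 3.23, 3.87 and 4.37 in WT cells, and its difference between Ezh2Δ/Δ and WT cells was 1.09 ± 0.27 (SE; adjusted p = 0.015). Both genes were highest in Ezh2Δ/Δ DN2 and DN3 cells. Trp53inp1 stood at 4.97, 3.83 and 4.20 in double-deleted, 4.83, 4.26 and 4.79 in p53Δ/Δ, 4.89, 4.83 and 4.87 in Ezh2Δ/Δ and 3.88, 3.47 and 4.20 in WT cells. It was higher in p53Δ/Δ and in Ezh2Δ/Δ cells than in WT, by 0.78 ± 0.26 and 1.01 ± 0.26 (adjusted p = 0.0454 and 0.0168). The first of these calls was lost under 11 of 19 alternatives, with adjusted p up to 0.172.

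Fas, the receptor of Fas ligand, was at 1.43, 0.25 and -0.38 in double-deleted, 1.94, 2.01 and 1.07 in p53Δ/Δ, 1.80, 0.32 and 0.69 in Ezh2Δ/Δ and 1.15, -1.96 and -0.85 in WT cells. It was higher than in WT in p53Δ/Δ cells by 2.23 ± 0.50 (SE; adjusted p = 0.00838) and in Ezh2Δ/Δ cells by 1.49 ± 0.50 (SE; adjusted p = 0.0447). The call in Ezh2Δ/Δ cells was lost under 12 of 19 alternatives, with adjusted p up to 0.169. WT DN2 and DN3 were its 2 lowest arrays. Ei24 stood at 0.63, 0.70 and 0.31 in double-deleted, -0.15, -0.46 and -1.32 in p53Δ/Δ, -0.62, -0.95 and -0.41 in Ezh2Δ/Δ and -0.65, -0.85 and -0.33 in WT cells, and was higher in double-deleted cells than in p53Δ/Δ by 1.19 ± 0.32 and than in Ezh2Δ/Δ by 1.21 ± 0.32 (adjusted p = 0.0226 and 0.0218). All 3 double-deleted arrays lay above the 9 other non-leukemic arrays for it. Phlda3 was higher in Ezh2Δ/Δ than in WT cells by 2.01 ± 0.36 and lower in p53Δ/Δ than in WT cells, at -1.16 ± 0.36 (adjusted p = 0.00304 and 0.0323). The call between p53Δ/Δ and WT cells was lost under 5 of 19 alternatives, with adjusted p up to 0.118. The mean Phlda3 level in double-deleted cells, 0.84, was lower than the 2.59 of Ezh2Δ/Δ cells, a call kept under 20 of 20 alternatives. That mean was higher than the -0.57 of p53Δ/Δ cells, a call lost under 4 of 20, with adjusted p up to 0.0605.

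Among arrest and checkpoint targets, Ccng1 was at 1.65, 1.35 and 1.39 in double-deleted, 1.81, 1.98 and 1.31 in p53Δ/Δ, 2.34, 2.64 and 2.66 in Ezh2Δ/Δ and 1.82, 1.42 and 2.03 in WT cells. It was lower in double-deleted than in Ezh2Δ/Δ cells, at -1.09 ± 0.27 (SE; adjusted p = 0.0162), and higher in Ezh2Δ/Δ than in WT cells by 0.79 ± 0.27 (SE; adjusted p = 0.0474), and the Ezh2Δ/Δ arrays were its 3 highest. Its call against WT was lost under 13 of 19 alternatives, with adjusted p up to 0.195. Ckap2 stood at 0.66, 1.68 and 0.91 in double-deleted, -0.19, -0.44 and -0.09 in p53Δ/Δ, -2.13, 0.18 and -0.45 in Ezh2Δ/Δ and -1.09, 1.08 and 1.05 in WT cells, and was higher in double-deleted than in Ezh2Δ/Δ cells by 1.88 ± 0.49 (SE; adjusted p = 0.0191). Plk2 was at 1.41, -1.15 and -1.37 in double-deleted, -0.99, -1.59 and -1.47 in p53Δ/Δ, -0.06, -4.12 and -2.99 in Ezh2Δ/Δ and 0.12, -1.59 and -2.15 in WT cells. The last 2 Ezh2Δ/Δ values were not well above background, and double-deleted cells were higher than Ezh2Δ/Δ by 2.02 ± 0.57 (SE; adjusted p = 0.0272). Over the alternatives the Plk2 difference ran from 0.37 to 2.61. Its call was lost under 6 of 20, the normexp background correction among them, with adjusted p up to 0.394.

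Sertad1 stood at 2.57, 2.27 and 2.70 in double-deleted, 3.28, 4.21 and 3.77 in p53Δ/Δ, 3.30, 1.76 and 2.67 in Ezh2Δ/Δ and 3.36, 2.76 and 2.70 in WT cells, and was lower in double-deleted than in p53Δ/Δ cells, at -1.24 ± 0.40 (SE; adjusted p = 0.0423). Ier5 was at 0.97, -0.40 and -0.93 in double-deleted, 1.42, 1.81 and 0.32 in p53Δ/Δ, 1.63, -0.71 and -0.72 in Ezh2Δ/Δ and 1.44, -0.79 and -1.25 in WT cells, and was higher in p53Δ/Δ than in WT cells by 1.38 ± 0.46 (SE; adjusted p = 0.0443). The p53Δ/Δ DN2 array held the highest value of both genes. The Sertad1 call was lost under 12 of 20 alternatives, with adjusted p up to 0.151, and the Ier5 call under 11 of 19, up to 0.154. Gadd45a was higher in double-deleted cells than in p53Δ/Δ by 0.77 ± 0.23 and than in Ezh2Δ/Δ by 1.59 ± 0.23, and lower in Ezh2Δ/Δ than in WT cells, at -0.95 ± 0.23 (adjusted p = 0.0317, 0.0013 and 0.0122). Its call between double-deleted and p53Δ/Δ cells was lost under 6 of 20 alternatives, with adjusted p up to 0.137.

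Of the repair and metabolic targets, Fdxr stood at 2.52, 2.44 and 2.54 in double-deleted, 3.33, 3.46 and 2.90 in p53Δ/Δ, 3.82, 4.03 and 3.85 in Ezh2Δ/Δ and 2.66, 3.19 and 3.25 in WT cells. It was lower in double-deleted cells than in Ezh2Δ/Δ, at -1.40 ± 0.24, and than in p53Δ/Δ, at -0.73 ± 0.24, and higher in Ezh2Δ/Δ than in WT cells by 0.87 ± 0.24 (adjusted p = 0.00293, 0.0433 and 0.0202). The call against p53Δ/Δ was lost under 11 of 20 alternatives, with adjusted p up to 0.174. All double-deleted arrays lay below all other non-leukemic arrays for Fdxr. Sesn2 was at 1.26, 1.57 and 1.42 in double-deleted, 0.56, 0.87 and 1.15 in p53Δ/Δ, 1.07, 0.98 and 0.87 in Ezh2Δ/Δ and 1.84, 1.76 and 1.86 in WT cells, and the WT arrays were its 3 highest. It was lower than in WT in p53Δ/Δ and Ezh2Δ/Δ cells, at -0.96 ± 0.22 and -0.85 ± 0.22 (adjusted p = 0.00867 and 0.0156).

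Polk stood at -1.2, -1.36 and -1.52 in double-deleted, -1.17, -1.54 and -1.30 in p53Δ/Δ, -1.16, -1.36 and -0.97 in Ezh2Δ/Δ and -1.80, -1.72 and -1.81 in WT cells, and was higher in Ezh2Δ/Δ than in WT cells by 0.61 ± 0.21 (SE; adjusted p = 0.046). That call was lost under 14 of 19 alternatives, with adjusted p up to 0.186. Ephx1 was at 3.57, 1.27 and 0.42 in double-deleted, 4.53, 4.25 and 2.69 in p53Δ/Δ, 5.03, 1.16 and 1.48 in Ezh2Δ/Δ and 4.47, -0.86 and 0.18 in WT cells. It was higher in p53Δ/Δ than in WT cells by 2.56 ± 0.75 (SE; adjusted p = 0.0266), and its highest values were on DN1 arrays and on p53Δ/Δ DN2. This Ephx1 call was lost under 5 of 19 alternatives, the mean of all its probes among them, with adjusted p up to 0.112. Dcxr was lower in p53Δ/Δ than in WT cells, at -1.84 ± 0.41, and in double-deleted than in Ezh2Δ/Δ cells, at -1.27 ± 0.41. It was higher in double-deleted than in p53Δ/Δ cells by 1.93 ± 0.41 and in Ezh2Δ/Δ than in WT cells by 1.36 ± 0.41 (adjusted p = 0.00846, 0.0451, 0.00849 and 0.0316). The call between double-deleted and Ezh2Δ/Δ cells was lost under 10 of 20 alternatives, with adjusted p up to 0.190, and that between Ezh2Δ/Δ and WT cells under 8 of 19, up to 0.121.

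Whether p53 loss acted differently with and without Ezh2 was tested by the interaction, the difference of double-deleted and Ezh2Δ/Δ cells minus that of p53Δ/Δ and WT cells. Of the targets 8 were lower and 5 higher, against 25.3% and 20.7% of all features. This contrast sets slides 1 and 3 against slide 2, so the interaction and the slide cannot be told apart. Bbc3 and Sesn1 passed here and in no other genotype comparison. Bbc3 was at 3.82, 1.69 and 1.75 in double-deleted, 3.33, 3.78 and 3.20 in p53Δ/Δ, 3.99, 3.06 and 3.51 in Ezh2Δ/Δ and 3.55, 1.66 and 1.64 in WT cells. Sesn1 was at 3.91, 2.57 and 2.46 in double-deleted, 4.0, 5.34 and 2.76 in p53Δ/Δ, 4.16, 3.56 and 3.07 in Ezh2Δ/Δ and 3.22, 2.65 and 2.30 in WT cells.

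Across stages no target passed the test. From DN1 to DN2 (4 arrays each), 0 of 33 passed under limma, against 1.39% of all features, and 13 had an unadjusted p under 0.05, as did 19.9% of all features. The smallest p belonged to Ephx1, at -2.95 ± 0.65 (SE; adjusted p = 0.0714), Plk2, at -2.23 ± 0.49 (SE; adjusted p = 0.0724), and Gadd45a, at -0.87 ± 0.20 (SE; adjusted p = 0.0779). Without p53Δ/Δ DN2, the array closest to a DN1 array, 4 targets were lower in DN2 (Ephx1 at -3.61, Plk2 at -2.51, Fas at -1.83 and Ier5 at -1.82) and 3 were higher (Psrc1 at 1.76, Ckap2 at 1.67 and Steap3 at 1.14), while 1183 of all 27035 features were lower and 605 higher. Without p53Δ/Δ DN1, 6 were lower and 1 higher, the lower ones including Gadd45a and Bbc3, while 1111 of all features were lower and 1479 higher. Detection of markers of other cells differed by stage: 10 of 10 NK markers were well above background on each DN1 array, against 3 or 4 on each DN3 array, and their log2 summed level was 9.18 to 10.3 in DN1 and 7.95 to 9.42 in DN3. Of the 11 myeloid and dendritic markers, 7 to 11 were on DN1 arrays and 4 to 9 on DN3 arrays. Their part in the stage differences was not tested.

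From DN2 to DN3, 0 of 33 targets passed and 0 had an unadjusted p under 0.05, against 0.0222% of all features that passed and 6.33% with such an unadjusted p. The effect of p53 loss at DN3 minus that at DN1 passed for 0 of 33 targets under limma, against 0.0037% of all features, and 5 targets had an unadjusted p under 0.05, as did 13.1% of all features. By stage, Phlda3 differed between arrays without and with p53 by -0.93 at DN1, -1.34 at DN2 and -2.09 at DN3, and the difference between DN3 and DN1 was -1.16 ± 0.52 (SE; adjusted p = 0.396). Dcxr differed by -1.20, -1.49 and -1.97 in the same order, and Ccng1 by -0.35, -0.36 and -0.99. Gadd45a differed by 0.76, 0.65 and 0.79. Each of these values rests on 4 arrays, and none of the 4 genes passed the test between DN3 and DN1.

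The leukemias were compared with double-deleted DN2 cells, the non-leukemic cells of the same genotype and gate, whose level came from the additive fit and so drew on all 12 non-leukemic arrays. Pmaip1 fell and no other target passed, 1 lower and 0 higher of 33, against 0.98% and 1.5% of all features. Pmaip1 stood at 0.33 and -0.33 in the leukemias of mice 13 and 19, against 2.90, 2.92 and 2.48 in double-deleted cells of the 3 stages. It was at 2.63, 2.38 and 3.23 in p53Δ/Δ, 2.85, 1.86 and 2.38 in Ezh2Δ/Δ and 2.15, 2.34 and 1.54 in WT cells. Both leukemias lay below all 12 non-leukemic arrays, and the difference was -2.67 ± 0.43 (SE; adjusted p = 0.0142), a 6.35-fold lower level. Leaving out double-deleted DN2 gave an adjusted p of 0.123. The leukemias lie on a slide of their own, so leukemia and slide cannot be told apart.

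The 33 targets had a median difference of -0.46 in the leukemias, against -0.01 for all features, and 9 targets, against 17.8% of all features, were under an unadjusted p of 0.05. The arrest and checkpoint group, which also holds microtubule and spindle genes, had a median of -0.89, with 2 of 10 above 0. The 19 proliferation genes had a median of -1.41, with 0 that passed. Dcxr stood at -1.60 and -1.06 in the leukemias and differed by -1.54 ± 0.50 (SE; adjusted p = 0.149). Phlda3 stood at 0.11 and -0.44 and differed by -1.25 ± 0.43 (SE; adjusted p = 0.175). Tnfrsf10b, at -1.65 and -0.63, differed by -1.22 ± 0.41, and Triap1, at 1.98 and 1.98, by -0.90 ± 0.30. Fas was the one target under an unadjusted p of 0.05 with a higher level, at 1.2 and 1.74, a difference of 1.51 ± 0.60 (SE; adjusted p = 0.229). The 2 leukemias differed from each other by over 3 units in Plk2 (-1.46 in mouse 13, and -4.84, not well above background, in mouse 19) and by over 2 units in Bbc3 (3.19 and 1.03) and Btg2 (5.26 and 3.13).

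**Figure D5:**
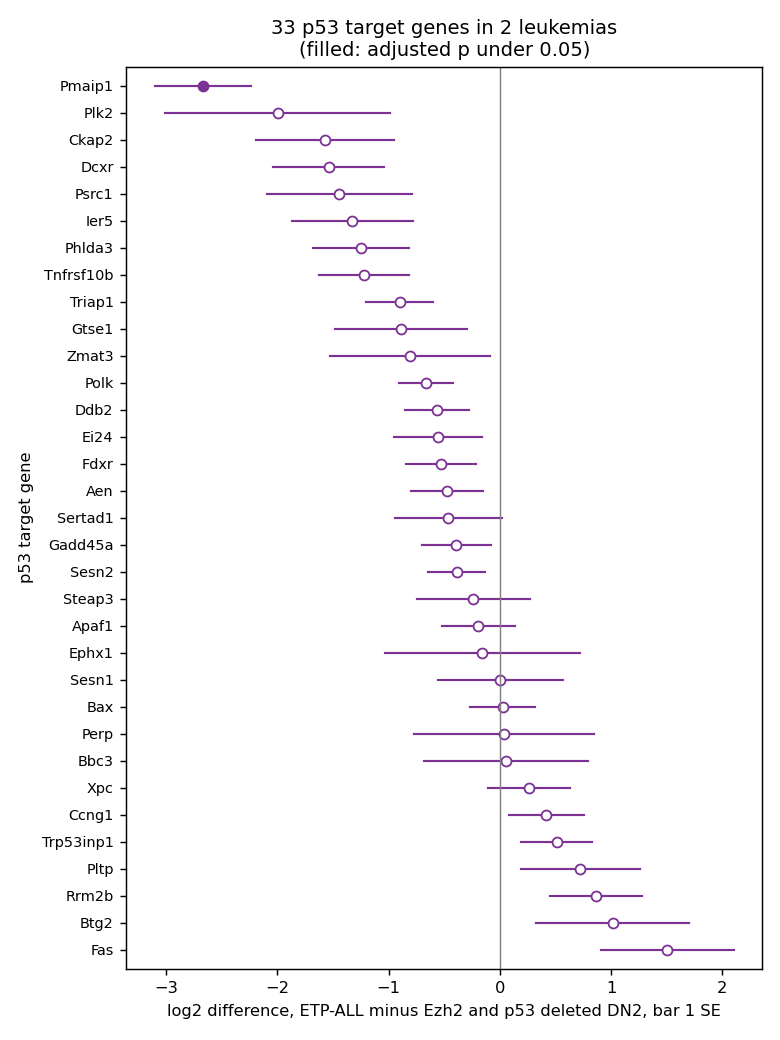
Log2 differences of the 33 tested p53 target genes (rows) between the 2 ETP-ALL arrays and double-deleted DN2 cells, with bars of 1 SE. Pmaip1 at -2.67 is the one filled point, at an adjusted p under 0.05.

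The regulators of p53 were read beside its targets, from a list of 15 that were all tested. With p53 loss Cdkn2a rose by 6.78 ± 0.43 (SE; adjusted p = 0.000168), while Trp53 fell (adjusted p = 0.00259), and so did Hipk2, a kinase that activates p53, at -0.75 ± 0.17 (SE; adjusted p = 0.0332). For Trp53 the bounds given above stand in place of a difference. The other 12 did not pass. Hipk2 was high in Ezh2Δ/Δ cells only, at 0.73, 0.83 and 0.55 in DN1, DN2 and DN3. It was at -1.11, -0.82 and -0.41 in double-deleted, -1.13, -0.73 and -1.10 in p53Δ/Δ and -0.95, -1.09 and -0.89 in WT cells. Between p53Δ/Δ and WT cells Hipk2 did not pass, and Ezh2Δ/Δ cells exceeded WT cells by 1.68 ± 0.24 (adjusted p = 0.000962), across slides. Cdkn2a was at 5.46, 5.43 and 4.78 in double-deleted, 6.56, 6.40 and 6.57 in p53Δ/Δ, 1.1, 2.74 and 2.44 in Ezh2Δ/Δ and -3.05, -5.28 and -3.45 in WT cells, where DN2 and DN3 were not well above background. In the leukemias it stood at 6.72 and 7.25. The rise of 6.78 averaged 10.44 ± 0.61 for p53Δ/Δ against WT and 3.13 ± 0.61 for double-deleted against Ezh2Δ/Δ cells. With WT DN2 and DN3 not well above background, its size is no measured fold. With Ezh2 loss Cdkn2a rose by 2.37 ± 0.43 (adjusted p = 0.0191). That averaged 6.02 for Ezh2Δ/Δ against WT and -1.29 for double-deleted against p53Δ/Δ cells. Mdm2 stood at 4.49, 4.76 and 4.95 (lowest, median and highest) without p53 and 4.46, 4.68 and 4.99 with it, a difference of 0.02 ± 0.15 (SE; adjusted p = 0.936) with a 95% interval of -0.31 to 0.35.

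In a list of 14 further p53 targets, 12 had a probe, 11 were tested and 0 passed for p53 loss. Cdkn1a (p21), the cyclin-dependent kinase inhibitor and best known p53 target, was at 0.16, 2.0 and 2.67 in double-deleted cells of the 3 stages and at -1.42, 1.82 and 2.01 in p53Δ/Δ cells. It was at 0.45, 2.91 and 3.37 in Ezh2Δ/Δ and -0.37, 2.99 and 2.44 in WT cells, so at each stage p53Δ/Δ cells were the lowest. The difference with p53 loss was -0.76 ± 0.23 (SE; adjusted p = 0.073), and p53Δ/Δ against Ezh2Δ/Δ cells on slide 2 gave -1.44 ± 0.32 (SE; adjusted p = 0.0422). Unlike the 33 members, it passed from DN1 to DN2, rising by 2.72 ± 0.28 (SE; adjusted p = 0.0021).

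The sorted cells were also checked against markers. All 12 T cell precursor markers were well above background on each non-leukemic array, and 11 or 12 in the leukemias. For p53 loss, 0 of 12 T cell precursor markers, 1 of 10 NK markers (Nkg7, lower), 1 of 6 tested B cell markers (Cd79b, lower), 2 of 11 myeloid and dendritic markers (Csf1r and Lyz2, lower), 0 of 7 erythroid and megakaryocytic markers, 1 of 6 double-positive markers (Cd8b1, higher) and 1 of 4 tested stroma and endothelium markers (Epcam, lower) passed. The log2 of the summed level of the B cell list lay between 2.43 and 3.16 in double-deleted, 2.36 and 2.68 in p53Δ/Δ, 4.55 and 5.79 in Ezh2Δ/Δ, and 3.48 and 3.85 in WT cells. Of the 7 B cell genes with a probe, 2 to 6 were well above background on an array. The part of these cells in the differences of Phlda3 and Dcxr was not tested. With Ezh2 loss, Cd4, Cd8a and Cd8b1, of the double-positive list, fell and Epor, of the erythroid list, rose, and no other marker passed. The double-positive list was at 4 to 6 of 6 genes well above background in Ezh2Δ/Δ cells and at 6 of 6 in the other non-leukemic cells, although the gates were CD4-CD8-. In the leukemias Ptcra and Cd8a fell and Epcam rose.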

How the data were processed

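RNA of 14 samples was hybridised to Agilent 1-colour mouse arrays. Per the file headers, the authors' scanner files were made with Feature Extraction 10.7.1.1. The deposited intensity used here is the processed signal, which that software background-corrects. A value table deposited by the authors holds the same signal divided by the array's 75th percentile (its ratio to the processed signal was constant on each array), and served as an alternative.

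Log2 of the intensity minus the array's 75th percentile was computed. Control and outlier spots were left out, 59305 spots gave 55681 probes, and spots of a probe were averaged. The scanner files used here have no gene name column, so accessions were matched to RefSeq symbols of GRCm38.p6: 27656 probes had 1 symbol, 0 several and 28025 none. The probe with the highest mean represented a gene. Features well above background on at least 2 arrays were tested (27035). Tests used limma 3.58.1 in R 4.3.3, with genotype and stage as additive terms over 12 arrays, 6 residual and 2.92 prior degrees of freedom, and Benjamini-Hochberg adjustment at 0.05. The stage interaction left 4 residual degrees of freedom, and the leukemia fit over 14 arrays left 7. Where a gene was not well above background on every array of a group, a fold is given as a bound from the lowest signal well above background on each array. The number of arrays limits the precision.

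The members, the gene lists and the markers were chosen with earlier results of these data known. All 35 members are reported, with per-array values for those that passed a genotype or leukemia test and those next to the threshold for p53 loss. Alternatives were another background correction, scaling, filter, probe rule, the deposited table, slide terms and each array left out. Slide as a random block was added after seeing the data.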

Additional observations from a re-analysis of the deposited data

Results flagged for a closer look

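The interaction term of the limma fit, between p53 loss and Ezh2 loss, passed for 13 of the 33 targets. These are 8 lower and 5 higher (24.2% and 15.2%), against 25.3% and 20.7% of all features. Both shares lay below those of all features, so the calls are not particular to the targets. The values are log2 differences, double-deleted minus Ezh2Δ/Δ less p53Δ/Δ minus WT, and slide cannot be told apart from this contrast.

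Of the arrest and checkpoint targets 3 were higher: Gtse1 at 11.62 ± 0.61 (SE; adjusted p = 1.29e-06), Gadd45a at 1.71 ± 0.32 (SE; adjusted p = 0.00272) and Ckap2 at 2.47 ± 0.69 (SE; adjusted p = 0.0175). The Gtse1 value rests on probes not well above background in both single genotypes, so its size is no measured fold. Of the repair targets, Rrm2b was at 3.99 ± 0.48 (SE; adjusted p = 0.000251) and turned to -1.27 with the normexp background correction. No Ezh2Δ/Δ or p53Δ/Δ array gave it a signal well above background, so neither its size nor its direction is a measured difference.

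Of the apoptosis targets 5 were lower: Bax at -1.59 ± 0.35 (SE; adjusted p = 0.00632), Fas at -2.73 ± 0.70 (SE; adjusted p = 0.0124), Aen at -1.42 ± 0.39 (SE; adjusted p = 0.0162), Trp53inp1 at -1.31 ± 0.37 (SE; adjusted p = 0.0189) and Bbc3 at -2.26 ± 0.66 (SE; adjusted p = 0.0215). Of the metabolic targets, Fdxr was at -1.60 ± 0.33 (SE; adjusted p = 0.00453), Ephx1 at -3.37 ± 1.06 (SE; adjusted p = 0.0288) and Sesn1 at -1.92 ± 0.68 (SE; adjusted p = 0.0441), while Sesn2 was higher, at 1.40 ± 0.31 (SE; adjusted p = 0.00557). Sesn1 was lost under 12 of 19 alternatives, Ephx1 under 11 of 19 and Bbc3 under 8 of 19. Trp53inp1 was lost under 4 of 19, with adjusted p up to 0.490.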

How the results depend on the processing

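Of 71 calls of a target in a comparison, tested in 1382 alternative fits, 1102 kept direction and side of the threshold, 274 kept the direction only and 6 turned sign. All 6 turned with the normexp background correction: Rrm2b at 0.35 (p53Δ/Δ against WT), 0.52 (Ezh2Δ/Δ against WT), -0.91 (double-deleted against Ezh2Δ/Δ), -0.75 (against p53Δ/Δ) and -1.27 (interaction), and Pltp at -0.30 (double-deleted against p53Δ/Δ). The cause was not tested. With normexp, the targets called were 4 lower and 4 higher for p53 loss, 7 higher for double-deleted against WT, 5 lower for double-deleted against p53Δ/Δ, 2 lower from DN1 to DN2 and 2 lower in the leukemias. All features called in these 5 comparisons with normexp, lower and higher, were 6050 and 1116 (1294 and 845 without it), 8041 and 1795 (940 and 1005), 11958 and 3936 (4277 and 4291), 417 and 58 (326 and 50), and 539 and 993 (265 and 405). With slide as a block, 0 rose for p53 loss, 3 rose for Ezh2 loss and 0 rose for double-deleted against WT. As a random block, slide gave 6 lower for double-deleted against p53Δ/Δ. With the arrays of slide 2 alone, 0 were lower in p53Δ/Δ than in Ezh2Δ/Δ cells. Scaling on probes detected on all arrays gave 3 higher for Ezh2 loss, 6 higher for Ezh2Δ/Δ against WT, 1 lower for double-deleted against p53Δ/Δ and 5 lower for the interaction. Without a filter on dim probes, 7 were higher for Ezh2Δ/Δ against WT, 2 higher for p53Δ/Δ against WT and 1 lower for double-deleted against p53Δ/Δ. The mean of all probes gave 8 lower for double-deleted against Ezh2Δ/Δ and 4 lower against p53Δ/Δ, and quantile normalization 2 higher for double-deleted against WT and 1 lower against p53Δ/Δ. Leaving out 1 array at a time gave 0 to 3 lower and 0 to 2 higher for p53 loss, 4 to 5 and 1 to 7 for p53Δ/Δ against WT, 2 to 7 and 3 to 7 for double-deleted against Ezh2Δ/Δ, 0 to 2 higher for double-deleted against WT and 0 to 1 higher for p53Δ/Δ against Ezh2Δ/Δ. For Ezh2Δ/Δ against WT it gave 3 to 5 and 2 to 13, for double-deleted against p53Δ/Δ 0 to 6 and 4 to 8, for Ezh2 loss 2 to 5 higher, for the interaction 4 to 10 and 5 to 6, from DN1 to DN2 0 to 6 and 0 to 3, and in the leukemias 0 to 1 lower. Scaling on detected probes moved the median of all features by 0.20 for double-deleted against Ezh2Δ/Δ, -0.23 for Ezh2Δ/Δ against WT, 0.13 for p53Δ/Δ against Ezh2Δ/Δ, 0.29 for the interaction, -0.14 from DN1 to DN2 and 0.40 for p53 loss by stage. Under it 3128 features were lower and 4372 higher for double-deleted against Ezh2Δ/Δ (4606 and 3726 with the 75th percentile), 383 and 778 for double-deleted against WT (940 and 1005), and 5421 and 3189 for Ezh2Δ/Δ against WT (4814 and 4747). Stage was a term in every genotype fit, so genotypes were compared within stages. No pairing by mouse was made, since the labels do not say which mice gave the non-leukemic arrays.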
